A study of Mus musculus with 8 samples.

Results

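The genes described here were 10 that encode chaperones and proteases of the mitochondrion, chosen by name: Hspd1, Hspe1, Hspa9, Trap1, Lonp1, Clpp, Clpx, Dnaja3, Afg3l2 and Yme1l1. The table held 22962 genes, all 10 were among them, and all 10 were among the 12060 genes that passed a minimum mean of 0.5 FPKM over the libraries and were tested. FPKM corrects the number of reads for gene length and library depth, so levels can be set side by side between genes and, roughly, between libraries. The sum of FPKM still ranged from 411620 (DMSO 4) to 424673 (DoxSa 2), and the calls shifted with other scalings, as given below. The material was wild-type mouse gonadal tissue, from which cells of the stromal vascular fraction, the non-adipocyte cells of fat, were differentiated into adipocytes. On day 6, 4 libraries were from cells given DMSO, the vehicle, and 4 from cells given an agent labelled DoxSa. The labels give neither the full name nor the dose of DoxSa, and both groups shared genotype, tissue and differentiation. They do not say whether the libraries of a group came from separate animals or cultures, and every p-value below therefore covers the spread among these 8 libraries alone, which may be technical.

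Most mitochondrial proteins are made in the cytosol and imported as unfolded chains. In the matrix, the HSP70 of mitochondria pulls the chain in and the HSP60 chamber with its HSP10 lid lets it fold. Proteins that stay misfolded are cut by the matrix proteases LONP1 and CLPXP and by AAA proteases of the inner membrane, and an excess of misfolded protein is known to raise the genes of these chaperones and proteases, the mitochondrial unfolded protein response. Adipocytes depend on mitochondria for lipid synthesis and fatty acid oxidation.

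None of the 10 genes passed the test between DoxSa and DMSO (0 of 10 at an adjusted p under 0.05, limma with Benjamini-Hochberg adjustment over all 12060 genes). Across all tested genes, 5.90% passed (712), 3.88% higher in DoxSa (468) and 2.02% lower (244), so that 65.7% of those that passed were higher (54.9% with quantile normalization). At an unadjusted p under 0.05 there were 4 of 10, Hspd1, Hspe1, Hspa9 and Clpp, all with higher means in DoxSa, against 19.8% of all tested genes. With voom, an alternative fit on reads recovered from the FPKM values, 1 of 10 passed (Hspd1). In that fit 627 of all 12060 tested genes were called higher in DoxSa and 317 lower. The log2 fold change was above 0 for 9 of 10 members, where 56.7% of all genes had one above 0, and the median of the members was 0.08 beside 0.01 for all genes. Groups did not overlap for 1 of 10 (Hspe1, higher in DoxSa), while 12.5% of all genes had groups that did not overlap and 7.80% did so with higher DoxSa values. The 95% intervals of the 10 log2 fold changes lay between -0.11 and 0.29.

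**Figure D1:**
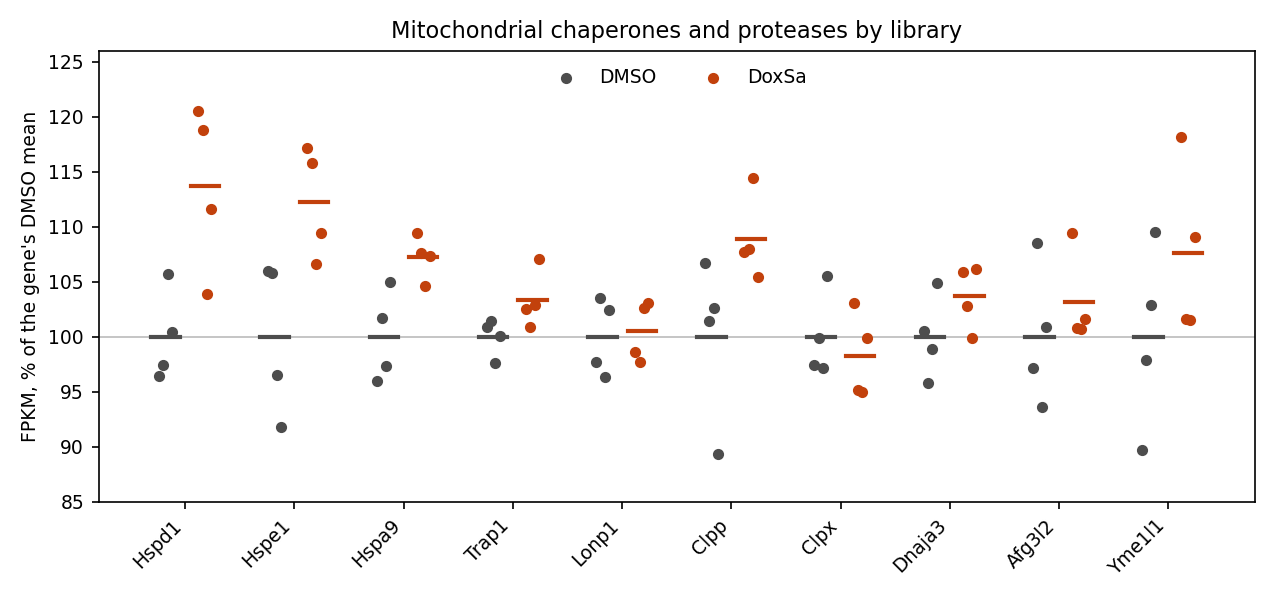
FPKM of each of the 10 genes in each library, in percent of that gene's DMSO mean (vertical axis). Points are libraries (grey DMSO, orange DoxSa, 4 each) and short bars are group means. For Hspe1 every DoxSa point lies above every DMSO point, and the groups of the other 9 genes overlap.

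Hspd1 encodes HSP60, the folding chamber of the matrix, and Hspe1 encodes HSP10, its lid. They had the highest fold changes of the 10. The gene starts of both lie back to back on mouse chromosome 1, on opposite strands, and the RefSeq starts used here (build GRCm38.p6) are 216 bases apart. The Hspe1 promoter window, chr1:55087898-55088197 on the + strand, from 250 bases before the start to 50 after it, is printed because it shares 285 of its 300 bases with the window of Hspd1 on the - strand, chr1:55087883-55088182. Capitals mark, in order along the window, a C/EBP half-site (TGCAAT, here bases 52 to 57) and a heat shock element (bases 162 to 179).

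Hspe1 promoter: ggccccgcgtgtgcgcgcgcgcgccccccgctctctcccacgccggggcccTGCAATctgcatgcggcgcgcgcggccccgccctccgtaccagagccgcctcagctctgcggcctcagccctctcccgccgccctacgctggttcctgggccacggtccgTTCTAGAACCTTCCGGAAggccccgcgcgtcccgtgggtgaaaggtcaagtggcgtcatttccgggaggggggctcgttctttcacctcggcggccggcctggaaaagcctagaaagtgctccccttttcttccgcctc

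The heat shock element was searched as GAANNTTC on both strands and extended to the whole run of alternating GAA and TTC units that are 2 bases apart. The run in the shared window has 4 units and begins 89 bases before the Hspe1 start. The element without the extension was in 7.86% of 32851 promoter windows of this length and, among the members, in the Hspd1 and Hspe1 windows only. A run of at least 4 units was in 8 windows (0.0244%), counting both of these. TGCAAT was in 8.40% of windows. RefSeq lists another Hspd1 start, which lies on the Hspe1 side, 95 bases past the Hspe1 start. Whether the counting used strand is not given in the sources used here, and without it reads from the overlapping ends of both genes cannot be told apart. Both genes also have near-identical pseudogene copies in the genome, so their values carry that uncertainty too.

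The FPKM of Hspd1 (Entrez identifier 15510) were 78.9, 79.7, 86.4 and 82.1 in DMSO replicates 1 to 4 and 98.5, 97.1, 84.9 and 91.3 in DoxSa replicates 1 to 4. DoxSa 1, 2 and 4 were above every DMSO library, and DoxSa 3 fell inside the DMSO range, below DMSO 3. The means were 81.8 ± 3.40 in DMSO and 93.0 ± 6.21 in DoxSa (SD, n = 4 each), 13.7% higher in DoxSa, from 8087 to 10547 reads a library. This gave a log2 fold change of 0.18 with a standard error of 0.05 and a 95% interval of 0.07 to 0.29 (limma adjusted p = 0.0555), which placed Hspd1 at rank 758 by p, behind the 712 genes that passed. This result lay close to the threshold: without DoxSa 3 the log2 fold change was 0.22 (adjusted p = 0.0222), without DMSO 3 it was 0.21 (adjusted p = 0.0475), and leaving out any of the other 6 libraries kept the adjusted p above 0.05. With voom the adjusted p was 0.0240, and with a minimum mean of 2 FPKM it was 0.0471.

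Hspe1 (15528) measured 88.1, 88.0, 80.3 and 76.3 FPKM in the DMSO libraries and 97.5, 96.3, 88.6 and 91.0 FPKM in the DoxSa libraries. The lowest DoxSa value was just above the highest DMSO value. Means were 83.2 ± 5.86 and 93.3 ± 4.22 FPKM (SD, n = 4 each) from 2401 to 3096 reads a library, and the log2 fold change was 0.17 ± 0.05 (SE) with an interval of 0.05 to 0.28 (limma adjusted p = 0.0911). The RNA of Hspe1 and that of Hspd1 had nearly the same level per length, and protein was not measured. Their ratio, Hspe1 over Hspd1, was 1.02 ± 0.105 in DMSO and 1.01 ± 0.0258 in DoxSa (SD, n = 4 each), a log2 difference of -0.02 (exact two-sided permutation p = 0.886). Within the groups the 2 genes did not follow each other closely: after removal of group means, their log2 values had a Pearson r of 0.16 over the 8 libraries, given as a description.

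The genes whose within-group pattern was most like that of Hspd1, among 7148 genes whose mean reached 5 FPKM, were Eif3e (r = 0.98), Khdrbs1 (0.98), Psma3 (0.98), Cwc15 (0.98) and Pabpn1 (0.97), by Pearson r of deviations over 8 libraries. These values share library depth and library preparation. The 5 genes were picked as the highest of 7148 over only 8 libraries, so the ranking itself favours a high r. How high an r unrelated genes would reach was not tested. Of the other members, Yme1l1 ranked highest by this measure, at 1194 with an r of 0.54, and Lonp1 lowest, at 6709 with an r of -0.63.

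Hspa9 encodes mortalin, the HSP70 of mitochondria, which drives import and folding in the matrix. It was the most abundant of the 10. Its FPKM (15526) were 216, 229, 219 and 237 in DMSO and 247, 242, 236 and 242 in DoxSa. DoxSa 1, 2 and 4 exceeded every DMSO library, while DoxSa 3 was slightly below DMSO 4. The means were 225 ± 9.32 and 242 ± 4.52 FPKM (SD, n = 4 each) from 26898 to 31039 reads, and the log2 fold change was 0.10 ± 0.04 (SE), with an interval of 0.02 to 0.18 (limma adjusted p = 0.139).

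Dnaja3 encodes the J-domain protein of the matrix that hands substrates to mortalin and stimulates its ATPase. Its FPKM (83945) were 28.2, 26.8, 27.7 and 29.4 in DMSO and 29.7, 28.8, 28.0 and 29.7 in DoxSa, and the groups overlapped. Their log2 fold change was 0.05, with an interval of -0.03 to 0.13 (limma adjusted p = 0.513). Grpel1, the nucleotide exchange factor of the same cycle, had a log2 fold change of 0.04 (adjusted p = 0.670). Neither ratio to mortalin passed a test: the log2 ratio to Hspa9 differed by -0.05 for Dnaja3 (exact two-sided permutation p = 0.257) and by -0.06 for Grpel1 (p = 0.171), with 12 pairs tested and both adjusted p at 0.386.

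Trap1 encodes the HSP90 of mitochondria. It was the steadiest of the 10 across the libraries of a group in DMSO, with a coefficient of variation of 1.67%. Its FPKM (68015) were 57.6, 57.9, 55.8 and 57.2 in DMSO and 58.5, 57.6, 58.8 and 61.1 in DoxSa. DoxSa 2 lay within the DMSO range and the other DoxSa libraries above it. Its log2 fold change was 0.05, with an interval of -0.02 to 0.12 (limma adjusted p = 0.462).

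Among the matrix proteases, Lonp1 encodes the ATP-dependent protease that degrades oxidized and misfolded matrix proteins. Its FPKM (74142) were 73.7, 78.1, 72.7 and 77.3 in DMSO and 74.4, 73.7, 77.4 and 77.8 in DoxSa. All 4 DoxSa values lay inside the DMSO range. Means were 75.5 ± 2.64 and 75.8 ± 2.08 FPKM (SD, n = 4 each), and the log2 fold change was 0.01, with an interval of -0.07 to 0.08 (limma adjusted p = 0.948). Its sign was not stable, since 3 other scalings of the libraries gave values between -0.0174 and -0.00686.

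Clpp encodes the proteolytic barrel of CLPXP and Clpx the unfoldase that feeds it. Clpp (53895) measured 24.6, 23.4, 23.7 and 20.6 FPKM in DMSO and 24.8, 24.9, 26.4 and 24.3 FPKM in DoxSa. DMSO 4 was the low library, and DoxSa 4 was the DoxSa library below DMSO 1. Clpp had a log2 fold change of 0.12 ± 0.05 (SE), with an interval of 0.01 to 0.23 (limma adjusted p = 0.227), and of 0.07 without DMSO 4.

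Clpx (270166) measured 23.0, 23.6, 23.0 and 24.9 FPKM in DMSO and 24.4, 22.5, 22.4 and 23.6 FPKM in DoxSa. It was the member with a log2 fold change below 0, at -0.02 with an interval of -0.11 to 0.06 (limma adjusted p = 0.808), and without DMSO 4 the value was 0.000822. The ratio of Clpx to Clpp was 1.03 ± 0.124 in DMSO and 0.926 ± 0.0613 in DoxSa (SD, n = 4 each), a log2 difference of -0.15 that did not pass the test (exact two-sided permutation p = 0.171, adjusted p = 0.386). The ratio of Lonp1 to Clpp differed by -0.12 on the log2 scale (exact p = 0.200, adjusted p = 0.386). Without DMSO 4 the log2 differences were -0.07 for Clpx over Clpp and -0.05 for Lonp1 over Clpp.

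The inner membrane holds a protease that faces the matrix, of which AFG3L2 is a subunit, and a protease that faces the intermembrane space, YME1L1, which cuts OPA1 and other substrates. Afg3l2 (69597) measured 17.7, 19.8, 17.1 and 18.4 FPKM in DMSO and 20.0, 18.4, 18.4 and 18.5 FPKM in DoxSa. DoxSa 1 stood above the other DoxSa libraries, and the groups overlapped. Afg3l2 had a log2 fold change of 0.04, with an interval of -0.06 to 0.15 (limma adjusted p = 0.690). Leaving out DMSO 3 or DoxSa 1 lowered it to 0.014 and 0.016, and leaving out DMSO 2 raised it to 0.08. Spg7, whose product forms mixed rings with AFG3L2, had a log2 fold change of 0.01 (adjusted p = 0.897), and the Spg7 to Afg3l2 ratio differed by -0.03 (exact two-sided permutation p = 0.514).

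Yme1l1 (27377) was the most variable of the 10 in both groups. It measured 27.1, 29.6, 31.1 and 33.1 FPKM in DMSO and 35.7, 30.7, 30.7 and 33.0 FPKM in DoxSa, with coefficients of variation of 8.38% and 7.34%. DMSO 1 was the lowest and DoxSa 1 the highest, and the rest overlapped. For Yme1l1 the log2 fold change was 0.10 ± 0.06 (SE), with an interval of -0.04 to 0.24 (limma adjusted p = 0.412). It was 0.05 without DMSO 1 and 0.06 without DoxSa 1. Oma1, the stress-activated protease that also cuts OPA1, was low, at 0.942 ± 0.0473 against 1.03 ± 0.0776 FPKM (DMSO against DoxSa, SD, n = 4 each), and its log2 ratio to Yme1l1 differed by 0.01 (exact two-sided permutation p = 0.943).

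By level in FPKM, Hspa9 led and was followed by Hspe1 and Hspd1, then Lonp1, Trap1, Yme1l1, Dnaja3, Clpx, Clpp and Afg3l2 by DMSO mean. Of the 9 neighbouring pairs in this order, Hspe1 and Hspd1, Yme1l1 and Dnaja3, and Clpx and Clpp had ranges over the 8 libraries that overlapped. Hspe1 was above Hspd1 in 3 of 8 libraries, Yme1l1 above Dnaja3 in 7 of 8, and Clpx above Clpp in 2 of 8. All other neighbours kept their order in 8 of 8 libraries. Together the 10 genes made up 0.151% to 0.159% of all FPKM in the DMSO libraries and 0.161% to 0.169% in the DoxSa libraries. The highest value of a gene was in DoxSa 1 for 5 of the 10, in DoxSa 4 for 2, and in DMSO 2, DMSO 4 and DoxSa 3 for 1 each. In bulk libraries, fewer cells of a type and less RNA per cell cannot be told apart.

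The rest of the mitochondrial quality-control system was read from lists of known genes. Of 12 further chaperones and HSP70 partners, 0 passed the test in limma (3 at an unadjusted p under 0.05) and the median log2 fold change was 0.05. Of 18 other proteases and their regulators, 0 passed (1 at an unadjusted p under 0.05), with a median of 0.02, and of 10 known protease substrates 0 passed (1 at an unadjusted p under 0.05), also with a median of 0.02. Of all tested genes, 5.90% passed and 19.8% had an unadjusted p under 0.05, and their median log2 fold change was 0.01. General markers of mitochondrial content, such as citrate synthase and respiratory subunits, had 0 of 13 past the test (1 at an unadjusted p under 0.05) and a median of -0.03.

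In the import machinery, 0 of 10 genes of the outer membrane complexes passed in limma, with a median log2 fold change of -0.01. At an unadjusted p under 0.05 there was 1 of 10, beside 19.8% of all tested genes. Of 13 inner membrane translocase genes, with the same median, 1 rose and 0 fell, beside 3.88% and 2.02% of all tested genes. The translocase gene that rose was Timm23, the channel through which matrix proteins enter. It measured 39.4, 42.9, 40.6 and 39.4 FPKM in DMSO and 44.4, 45.6, 51.1 and 49.4 FPKM in DoxSa. All 4 DoxSa values exceeded all DMSO values, as they did for 7.80% of all tested genes. The log2 fold change was 0.23 ± 0.05 (SE, limma adjusted p = 0.0205), and the adjusted p was 0.0535 without DoxSa 3 and 0.0544 without DoxSa 4.

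Regulators tied to the mitochondrial stress response had 4 of 10 genes higher and 0 lower, Ddit3, Nfe2l2, Atf4 and Cebpb. Across all tested genes 3.88% were higher and 2.02% lower, and this list was chosen with earlier results of these data known. These 4 genes also respond to stress of the endoplasmic reticulum, to amino acid shortage or to oxidants, and are not specific to mitochondria. Ddit3, which encodes the transcription factor CHOP, measured 15.8, 17.3, 14.9 and 17.0 FPKM in DMSO and 21.4, 21.4, 21.2 and 22.2 FPKM in DoxSa. Its groups were well apart, with a log2 fold change of 0.39 ± 0.05 (SE, limma adjusted p = 0.000880). Atf4, which encodes the central factor of the integrated stress response, rose from 122 ± 3.16 to 138 ± 3.74 FPKM (SD, n = 4 each), a log2 fold change of 0.18 (adjusted p = 0.0113). Nfe2l2, the oxidant-response factor NRF2, rose from 39.7 ± 0.706 to 45.4 ± 1.50 FPKM (adjusted p = 0.00939), and Cebpb from 33.5 ± 2.42 to 39.3 ± 0.912 FPKM (adjusted p = 0.0193, but 0.0571 without DoxSa 1 and 0.0545 without DoxSa 3). Atf5, the factor most directly linked to the mitochondrial unfolded protein response in mammals, did not pass: its means were 82.4 ± 4.79 and 80.2 ± 4.74 FPKM in DMSO and DoxSa, and it had a log2 fold change of -0.04 with an interval of -0.15 to 0.07 (adjusted p = 0.737).

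**Figure D2:**
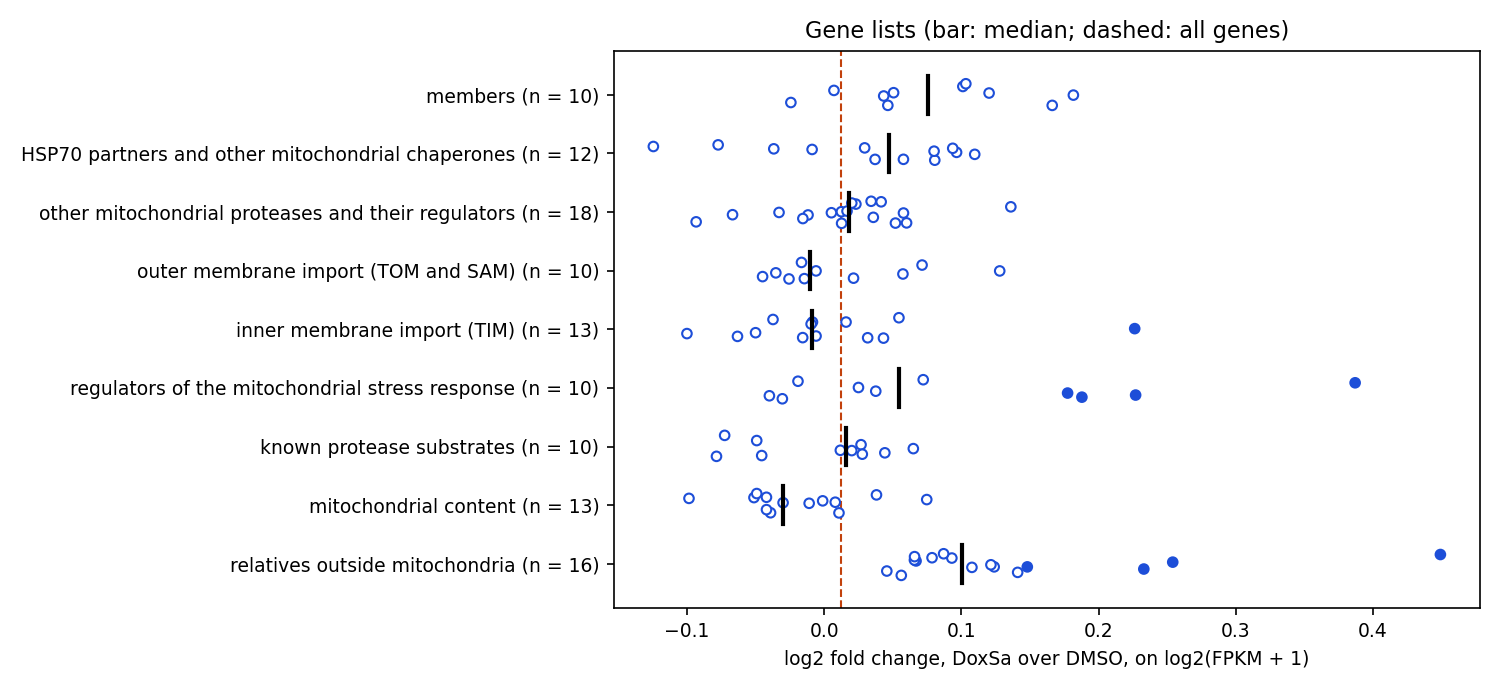
Log2 fold change of DoxSa over DMSO for each tested gene (horizontal axis, on the log2(FPKM + 1) scale) in the members and in 8 lists of related genes. Filled points passed an adjusted p of 0.05, black bars are list medians and the dashed line is the median of all tested genes. Filled points lie in the lists of regulators (4), inner membrane import (1) and relatives outside mitochondria (4), all to the right of 0.

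Several chaperone families of the matrix have relatives in the cytosol, and some also in the endoplasmic reticulum. Some of these relatives did change. Of 16 such genes, 4 rose and 0 fell: Hspa5 and Hsp90b1, the HSP70 and HSP90 of the endoplasmic reticulum, and Hsp90aa1 and Hspa8 of the cytosol. All 16 log2 fold changes were above 0, with a median of 0.10, and 10 of 16 had an unadjusted p under 0.05. Of all tested genes, 3.88% rose, 56.7% had a log2 fold change above 0 and 19.8% had an unadjusted p under 0.05. The list of relatives, too, was chosen with earlier results of these data known. The 16 include Tcp1 and the Cct genes, which encode subunits of the same cytosolic chaperonin, and none of these passed. Hspa5, the chaperone BiP, measured 340, 348, 332 and 371 FPKM in DMSO and 472, 498, 458 and 473 FPKM in DoxSa. No DoxSa library came near the DMSO range, and the log2 fold change was 0.45 ± 0.04 (SE, limma adjusted p = 0.000201). Hsp90b1 rose from 419 ± 22.0 to 499 ± 11.7 FPKM (SD, n = 4 each), a log2 fold change of 0.25 (adjusted p = 0.00479).

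The cytosolic genes of that list lay nearer the threshold. Hsp90aa1, the stress-inducible cytosolic HSP90, had a log2 fold change of 0.23 (limma adjusted p = 0.0192). It no longer passed with no filter on low values (adjusted p = 0.0900) or with DMSO 2 left out (0.0557). Nor did it pass with DoxSa 1 (0.0602), DoxSa 2 (0.0516) or DoxSa 4 (0.0502) left out. Its log2 fold change stayed between 0.21 and 0.28 over the 8 leave-outs. Hspa8, the constitutive HSP70, had a log2 fold change of 0.15 (adjusted p = 0.0455), and it lost its call in 13 of 18 alternatives. It did not pass when any of the 8 libraries was left out (adjusted p 0.0505 to 0.125, log2 fold change 0.12 to 0.17). With all 8 libraries it did not pass with no filter on low values (adjusted p = 0.128), no intensity trend (0.0801), library quality weights (0.0554), quantile normalization (0.0547) or the replicate block (0.0940). Hsp90ab1, the constitutive HSP90, had a log2 fold change of 0.11 (adjusted p = 0.0980), and Cct2, a subunit of the cytosolic chaperonin related to HSP60, 0.07 (adjusted p = 0.441).

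**Figure D3:**
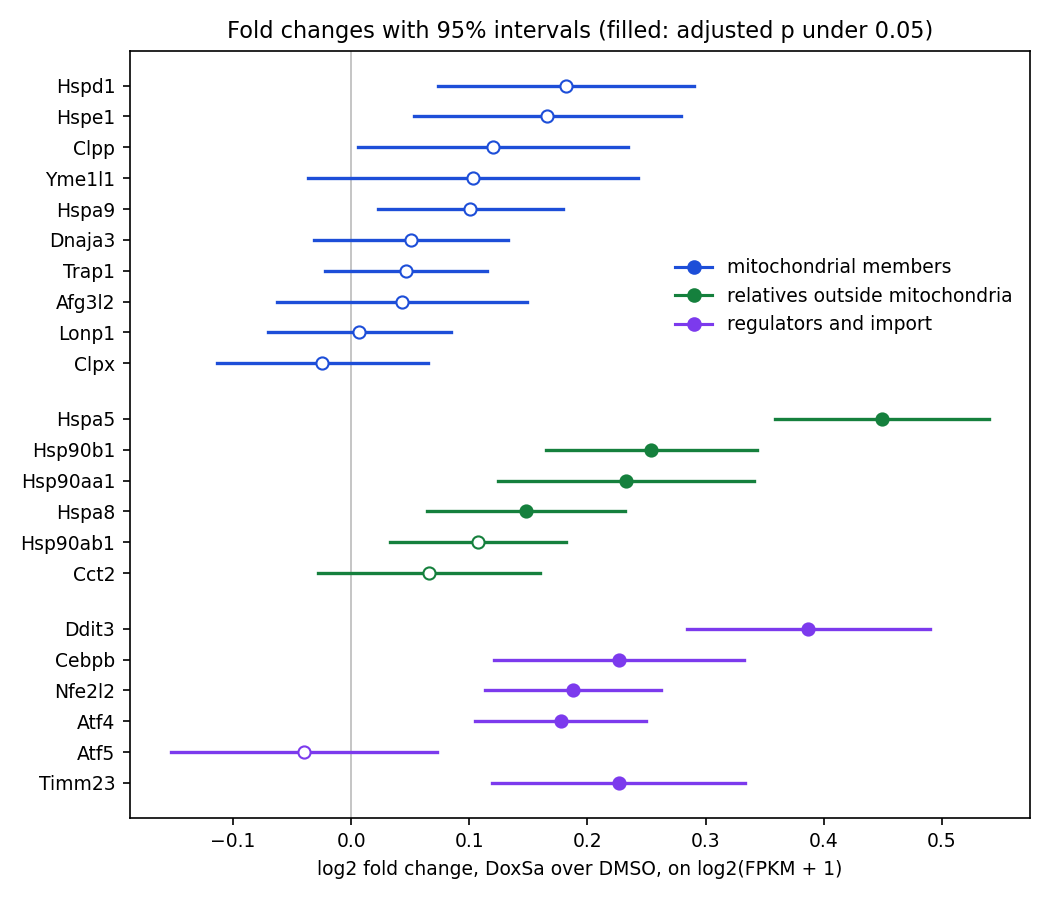
Log2 fold change of DoxSa over DMSO with its 95% interval (horizontal axis) for the 10 members (blue), relatives outside mitochondria (green), and regulators and Timm23 (purple). Filled points passed an adjusted p of 0.05. The interval of Hspa5 begins at 0.36, to the right of the highest member bound of 0.29.

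A direct test of each difference used the ratio of a relative to its mitochondrial counterpart within each library, which no scaling of libraries can change. The ratio of Hspa5 to Hspa9 was 1.57, 1.52, 1.52 and 1.57 in DMSO and 1.92, 2.05, 1.94 and 1.95 in DoxSa. The groups were far apart relative to their spread, and the mean ratio was 1.54 ± 0.0302 in DMSO and 1.97 ± 0.0596 in DoxSa (SD, n = 4 each), a log2 difference of 0.35. The ratio of Hsp90b1 to Trap1 was 7.33 ± 0.396 in DMSO and 8.46 ± 0.343 in DoxSa, a log2 difference of 0.21. The ratio of Cct2 to Hspd1 went the other way, from 1.13 ± 0.0307 to 1.04 ± 0.0297, a log2 difference of -0.12.

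For these 3 of 12 pairs the groups did not overlap and the exact two-sided permutation p was 0.0286, the smallest that 4 against 4 libraries can give. With Benjamini-Hochberg adjustment over the 12 pairs that p became 0.114, so 0 of 12 passed an adjusted p of 0.05. With 3 pairs at the smallest p, none of them could have passed, however large its difference. The adjusted p therefore cannot decide whether these ratios differed. The cytosolic partners Hspa8 over Hspa9 (log2 difference 0.05, exact p = 0.486) and Hsp90ab1 over Trap1 (0.06, exact p = 0.229) had overlapping groups.

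**Figure D4:**
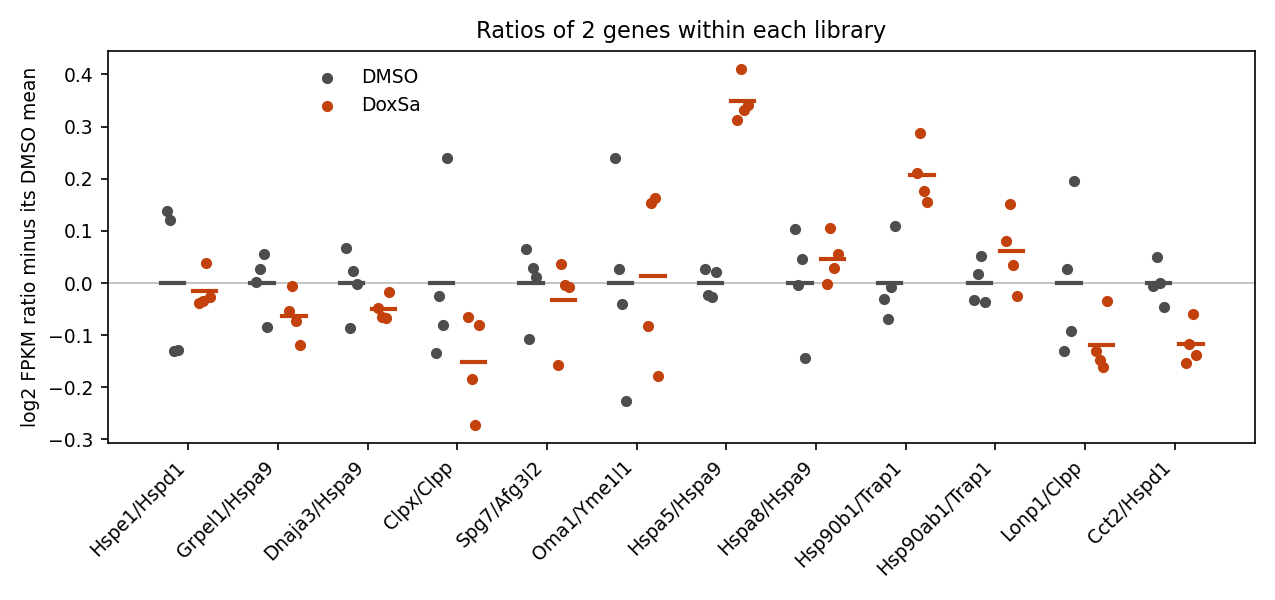
Log2 ratio of the FPKM of 2 genes within each library, minus the DMSO mean of that ratio (vertical axis), for the 12 pairs tested. Points are libraries (grey DMSO, orange DoxSa, 4 each) and bars are group means. The groups are apart for Hspa5/Hspa9, Hsp90b1/Trap1 and Cct2/Hspd1, with differences of 0.35, 0.21 and -0.12.

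The promoter window of Hspa5 is printed as the counterpart of the shared Hspd1 and Hspe1 window, since Hspa5 had the largest fold change among the relatives. It is chr2:34771840-34772139 on the + strand (RefSeq, GRCm38.p6), and the capitals mark an ER stress element, CCAAT and CCACG separated by 9 bases, which begins 65 bases before the start.

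Hspa5 promoter: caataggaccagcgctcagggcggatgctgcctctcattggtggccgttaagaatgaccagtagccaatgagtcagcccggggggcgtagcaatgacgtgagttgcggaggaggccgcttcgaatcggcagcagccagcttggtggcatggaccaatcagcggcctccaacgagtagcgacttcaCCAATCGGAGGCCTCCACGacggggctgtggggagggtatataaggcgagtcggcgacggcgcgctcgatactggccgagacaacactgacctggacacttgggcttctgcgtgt

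That element, searched on both strands, was in 39 of 32851 windows (0.119%). Named windows were read for the members, Hspa5 and Hsp90b1, and there it had 1 match in Hspa5, 2 in Hsp90b1 and none in the members. Hspa5 and Hsp90b1 both rose, and the windows of the other relatives were not read. At so low a share of all windows, the lack of a match in the members is what most genes show. Of the members, 8 had a window in the table, with 9 windows in all because Hspd1 has 2 starts, and those of Hspa9 and Afg3l2 were not analysed here. TGATGCAA, a composite of C/EBP and ATF sites, was in 0.895% of all windows and in 0 of the 9. GCGCATGC, the core of the site for nuclear respiratory factor NRF1, was in 2.71% of all windows and among the members in that of Clpx. The members' windows had a GC content of 55.3% to 73.3%, beside a median of 52.7% over all windows. A match describes letters in a window and does not show that a factor binds there.

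The annotation terms that the deposited table carries for each gene were read after the other results were known. Under mitochondrion, which held all 10 members, 54 of 1517 tested genes rose (3.56%) and 16 fell (1.05%), beside 3.88% and 2.02% of all genes. Under mitochondrial matrix, with 8 members, 3 of 153 rose and 1 fell, and under mitochondrial inner membrane, with 5 members, 5 of 467 rose and 2 fell. Under unfolded protein binding, with 5 members, 9 of 78 rose (11.5%) and 0 fell. Protein folding, with 6 members, had 8 of 97 higher (8.25%) and 0 lower. Proteolysis, with 5 members, had 21 of 315 higher (6.67%) and 9 lower (2.86%). ATP binding, with 9 members, had 51 of 1079 higher (4.73%) and 18 lower (1.67%). The term for the mitochondrial unfolded protein response had 2 tested genes, Hspd1 among them, and 0 passed. Under endoplasmic reticulum lumen, with none of the members, 9 of 57 rose (15.8%) and 0 fell. Hspa5 and Hsp90b1, already described above, were among those that rose. These shares are counts without a test of the term.

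Library totals recovered from the table ranged from 39213008 to 41365861 reads, and 18726 to 19108 genes were above 0. The labelled cell type was checked against markers: the summed FPKM of 10 adipocyte markers was 11389 to 11784 in DMSO and 11348 to 11929 in DoxSa, led by Fabp4, with 0 higher and 1 lower (Retn). Macrophage markers were also high, led by Lyz2: their summed FPKM was 5218 to 6088 in DMSO and 5813 to 6265 in DoxSa, and 3 of 8 were higher in DoxSa (Ptprc, Cd14 and Fcgr1). Fibroblast and progenitor markers, led by Col1a1, summed to 1929 to 2205 in DMSO and 1946 to 2171 in DoxSa, with 0 of 6 past the test. Mural markers summed to 36.3 to 39.2 in DMSO and 32.3 to 33.6 in DoxSa. Most of that was Pdgfrb (means 30.3 and 25.6), which was lower, while Rgs5 and Kcnj8 had means under 0.5 FPKM. Mesothelial markers summed to 16.8 to 17.3 and 11.6 to 16.2, nearly all from Krt19 (means 16.5 and 13.9). Msln, Upk3b, Wt1 and Lrrn4 of that list had means under 0.5 FPKM, as did the progenitor markers Dpp4 and Pi16. Cycling markers, led by Top2a, summed to 61.9 to 68.1 and 62.5 to 68.1. Endothelial markers, led by Pecam1, summed to at most 2.17 and lymphocyte markers, led by Nkg7, to at most 0.120. Retn, Pdgfrb and the 3 macrophage genes are named here because they passed, after their values were seen. The part of macrophage or other cells in the values of the 10 genes was not tested.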

How the data were processed

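RNA from 8 libraries, 4 DMSO and 4 DoxSa, was sequenced; groups were taken from the sample titles. The submitters' processing notes name HISAT2, HTSeq and GRCm39; versions, annotation and strandedness were not given in the sources used here. Values were deposited by the authors as FPKM in 1 table, with symbols, Entrez identifiers and annotation terms. Library totals (39213008 to 41365861 reads), gene lengths and reads were recovered from the steps of the FPKM values, and 12060 of 12060 tested genes came out whole (within 0.001 of a read).

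The test was limma (version 3.58.1, R 4.3.3) applied to log2(FPKM + 1), as a two-sided moderated test with an intensity trend (eBayes) and no covariate, for the 12060 genes whose mean reached 0.5 FPKM. P-values were adjusted by Benjamini-Hochberg over all tested genes, with a threshold of 0.05. Fold changes on this scale understate the change of low genes. The fit was tested on simulated data. Ratios of 12 pairs of genes were tested by exact two-sided permutation (scipy 1.17.1, 70 assignments).

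The members and gene lists were chosen with earlier results of these data known. Named were all members, up to 4 called genes a list and direction, both genes of each pair, the top marker of each list, and the 5 genes most like Hspd1. The lists hold some genes under an old and a new symbol, of which the table has 1; Ppargc1a was under the minimum. Promoter windows (250 bases before to 50 after a start) came from RefSeq, build GRCm38.p6; no coordinate of the deposited build was used. Alternatives covered the pseudocount, the filter, the trend, library weights, 3 scalings, a replicate block, voom on recovered reads and leaving out each library.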

Additional observations from a re-analysis of the deposited data

Results flagged for a closer look

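In 48 groups of 4 libraries (24 genes, both treatments), 3 held a library far from the other 3, by a gap to its neighbour that was a larger part of the group's range than Dixon's critical value for 4. Chance alone gives about 1 such group in 20. Afg3l2 was highest in DoxSa 1, at 20.0 FPKM, with the next library at 18.5 FPKM. Spg7, which encodes its partner subunit, was lowest in DMSO 3, at 17.6 FPKM, with the next at 18.6 FPKM. Oma1 was lowest in DoxSa 4, at 0.910 FPKM, with the next at 1.05 FPKM.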

How the results depend on the processing

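Each member was refitted under 18 alternatives. Hspd1 passed in 4 and Hspe1 in 1, and none of the other 8 members passed in any. Members called higher numbered 1 with a minimum mean of 2 FPKM, with voom and with the replicate block, and 0 to 1 when a library was left out (1 without DMSO 3 or DoxSa 3, Hspd1 both times). Among all genes, 462 of 9703 tested were called higher with a minimum mean of 2 FPKM, and 627 of 12060 with voom. Without a filter, 158 genes of all were higher and 108 lower, translocase genes called higher numbered 0 and relatives outside mitochondria 2; that setting tested 22962 genes. Leaving out a library gave 233 to 490 higher and 152 to 235 lower genes, 0 to 1 translocase genes and 2 to 3 relatives, with 1 sample fewer. Beyond these constructions the cause was not tested. Of all calls, 65.7% were higher, but 54.9% under quantile normalization (384 and 316). The log2 fold change of Lonp1 reversed to -0.00982 with median-of-ratios scaling, -0.0174 with quantile normalization and -0.00686 with equal FPKM sums, and that of Spg7 to -0.00376, -0.0259 and -0.000927. With a library left out, Lonp1 ranged from -0.0103 to 0.0235, Clpx from -0.0467 to 0.000822 and Spg7 from -0.00782 to 0.0245. Log2 ratio differences ranged from -0.0588 to 0.0301 for Hspe1/Hspd1, -0.0619 to 0.0936 for Oma1/Yme1l1, -0.00122 to 0.0813 for Hspa8/Hspa9 and -0.0682 to 0.00904 for Spg7/Afg3l2, and Oma1/Yme1l1 was -0.0432 with a pseudocount of 1.

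Replicate numbers did not pair the libraries: same-numbered ones had deviations with r from -0.0989 to 0.0654, and 1 of 8 libraries correlated best with its own number. With the replicate block, 415 genes were higher and 209 lower, and Hspe1 passed (adjusted p = 0.0416). The planned edgeR and DESeq2 fits were not run, since the deposited unit is FPKM. Each member had at least 1018 reads in every library. Counting error was a large part of the DMSO spread for Trap1, at 1.39% for its lowest reads, beside a coefficient of variation of 1.67%. For Clpp it was 3.13% at its lowest reads, in DMSO 4. The coefficients of variation of Clpp were 7.50% in DMSO and 3.56% in DoxSa.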
